A study of Homo sapiens with 18 samples.

Results

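D425 medulloblastoma cells carrying hairpin 6, a short hairpin RNA against EYA2, were set against D425 cells carrying a non-targeting hairpin, across all expressed genes. The comparison rested on 6 of the 18 libraries of the study, 3 with hairpin 6 and 3 controls, which were matched by the run number that ends each library's name (7, 9 or 10). D425 is an established cell line that the labels place in Group 3 medulloblastoma, a cerebellar tumour of childhood. Cells of both groups were transduced, held in 1 µg/mL puromycin for 48 h, sorted for the brightest 10% by the zsGreen marker on the hairpin construct, and lysed after 24 h of recovery. Both groups therefore carried a hairpin vector, a drug selection and a sort, and no untransduced cells were in the comparison. Polyadenylated RNA was sequenced. The other libraries used here are 3 of D425 with hairpin 8 and 9 of the line D458 (hairpin 7, hairpin 8 and control, 3 each).

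EYA2 is a coactivator without a DNA-binding domain of its own. It is recruited to genes by homeobox proteins such as SIX2 and also acts as a tyrosine phosphatase, and DACH proteins work in the same network as corepressors. In Group 3 medulloblastoma the tumour cells express photoreceptor genes under OTX2 and CRX, and many tumours have high MYC.

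The 6 libraries held 24144886 to 31552051 counts. Of 14850 genes tested, 4134 (27.8%) differed at an adjusted p under 0.05 in an edgeR quasi-likelihood test with a term for the run, 2154 higher with hairpin 6 (14.5%) and 1980 lower (13.3%). Without the run term 2101 genes passed (14.1%), 1086 higher (7.31%) and 1015 lower (6.84%), and 2096 genes passed in both fits in the same direction. With library totals in place of TMM scaling 2524 were higher and 1683 lower, and with upper quartile factors 2521 and 1686. The count also rested on single libraries, since it was 2216 without run 9, 1704 without run 10 and 2536 without the hairpin 6 library of run 10. The CPM values of the groups did not overlap for 5321 genes (35.8%), in either direction. In the text below, "rose" and "fell" mean that a gene passed the test with the run term, errors of log2 changes are standard errors, adjusted p values come from edgeR with Benjamini-Hochberg correction over all genes tested, and levels are TMM-scaled CPM (counts scaled to library size), which do not account for gene length.

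The higher and the lower genes had different sizes of change. At least 2-fold differences were found for 879 higher and 235 lower genes, and at least 4-fold ones for 325 and 63. The median log2 change was 0.73 among genes that rose and -0.41 among genes that fell. Among 2419 genes averaging 100 CPM or more, 208 rose (8.6%) and 557 fell (23%), whereas among 2418 genes under 1 CPM, 376 rose (15.6%) and 69 fell (2.85%). The runs differed in the spread of the change, with an SD of the within-run log2 change over genes of 8 CPM or more of 0.31 in run 7, 0.41 in run 9 and 0.50 in run 10.

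EYA2 itself fell. It stood at 15.1, 10.7 and 9.72 CPM in the hairpin 6 libraries of runs 7, 9 and 10, against 43.6, 24.6 and 15.5 CPM in the control libraries of the same runs. All hairpin 6 values lay below all control values, but the highest hairpin 6 value and the lowest control value were close, because the controls themselves ranged widely between runs. The log2 change was -1.17 ± 0.15 (adjusted p = 9.0e-05, 95% interval -1.49 to -0.84), which left 44.6% of the control level. Within runs the log2 change was -1.52, -1.19 and -0.67, so the fall was smallest in run 10. Without the run term it was -1.24 ± 0.27 (adjusted p = 0.0069).

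Of 10 tested genes of the EYA2 network (EYA, DACH and sine oculis homeobox genes), 4 fell and none rose, beside 13.3% and 14.5% of all tested genes. EYA2, the target of the hairpin, is 1 of the 4. SIX2, a homeobox partner of EYA proteins, had 46.8, 56.5 and 56.0 CPM with hairpin 6 and 73.6, 91.0 and 98.6 CPM in controls, a log2 change of -0.72 ± 0.07 (adjusted p = 3.6e-06). The groups did not overlap in any run. SIX4 fell by 0.43 ± 0.13 on the log2 scale (adjusted p = 0.017), with 13.7 to 15.03 CPM with hairpin 6 and 17.7 to 21.7 CPM in controls. The corepressor DACH1 had 2.45, 4.04 and 4.44 CPM with hairpin 6 and 5.23, 10.2 and 7.81 CPM in controls, a log2 change of -1.08 ± 0.13 (adjusted p = 2.3e-05). SIX3, SIX5, EYA3 and DACH2 did not pass, and EYA1 was at or under 0.2 CPM in all 6 libraries. MYC, the driver of many Group 3 tumours, fell by 0.43 ± 0.07 on the log2 scale (adjusted p = 2.2e-04), with 2562, 2894 and 2533 CPM with hairpin 6 and 3348, 3660 and 3736 CPM in controls.

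**Figure D1:**
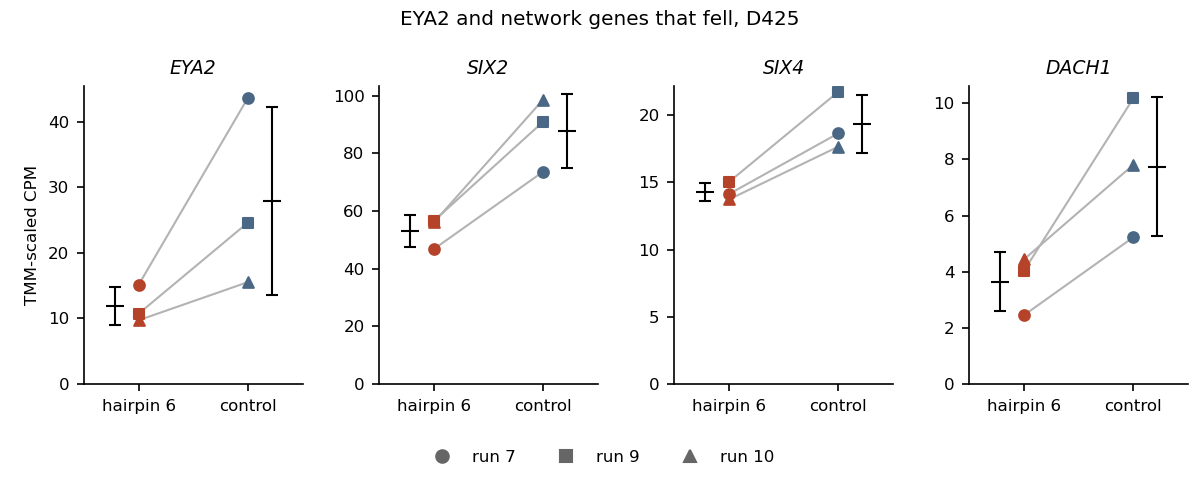
TMM-scaled CPM (y axis, from 0) of EYA2, SIX2, SIX4 and DACH1 in the 3 hairpin 6 libraries (left in each panel) and the 3 control libraries (right); symbols mark runs, grey lines join libraries of a run, and black bars give the mean and SD. Every line falls to the hairpin 6 side, and the EYA2 controls spread from 15.5 to 43.6 CPM.

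Chaperones of the endoplasmic reticulum, which fold secreted proteins and are induced as part of the unfolded protein response, fell more often than they rose. Of 30 tested members 17 fell and 1 rose, with a median log2 change of -0.29 against 0.01 over all tested genes. Without the run term 12 fell and 1 rose. Among all tested genes 13.3% fell and 14.5% rose, and 6.84% and 7.31% without the run term. HSPA5, the main luminal HSP70 chaperone (BiP), had 673, 660 and 670 CPM with hairpin 6 and 1321, 1122 and 1106 CPM in controls. The hairpin 6 libraries were nearly level and the groups far apart, with a log2 change of -0.82 ± 0.08 (adjusted p = 3.8e-06). MANF, a secreted protein of the same response, had 73.9, 71.1 and 75.1 CPM with hairpin 6 and 147, 121 and 116 CPM in controls (log2 change -0.80 ± 0.07, adjusted p = 2.2e-06). HYOU1, an exchange factor for BiP, changed by -0.61 ± 0.07, and the disulfide isomerase PDIA3 by -0.46 ± 0.06, both without overlap between the groups. The list also holds genes of chromosomes 3, 9 and 20, which were lower as a whole, as described further on. All 5 members on those chromosomes fell (HSPA5 is on chromosome 9 and MANF on chromosome 3), and of the 25 members elsewhere 12 fell and 1 rose, with a median of -0.22.

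The promoters of these genes were searched for the endoplasmic reticulum stress element, the sequence through which ATF6 acts together with NF-Y in this response. The letters searched were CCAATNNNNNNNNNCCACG on both strands, in the 250 bases before and 50 bases after each RefSeq start (GRCh38.p14). The search found them in 6 of 14 members that fell and have a promoter in the table, in 1 of 10 others, and in 25 of all 27305 genes in the table (0.0916%). The list was drawn up from genes of this response, so an excess over all genes follows from its choice. Another search used ACGTG, the core of the hypoxia response element. ACGTG was in 6 of 14 members that fell, in 6 of 10 others, and in 24.9% of all genes. Among targets of the hypoxia-inducible factors ACGTG was in 2 of 5 that fell and 11 of 19 others. Windows of 3 genes that passed both with and without the run term are printed because they hold the endoplasmic reticulum stress element. It is shown in capitals (on HSP90B1 the second match is on the opposite strand). HSP90B1 encodes the luminal HSP90 chaperone, with a log2 change of -0.49, and PDIA6 a disulfide isomerase, with -0.37.
HSPA5, chr9:125241294-125241593, minus strand: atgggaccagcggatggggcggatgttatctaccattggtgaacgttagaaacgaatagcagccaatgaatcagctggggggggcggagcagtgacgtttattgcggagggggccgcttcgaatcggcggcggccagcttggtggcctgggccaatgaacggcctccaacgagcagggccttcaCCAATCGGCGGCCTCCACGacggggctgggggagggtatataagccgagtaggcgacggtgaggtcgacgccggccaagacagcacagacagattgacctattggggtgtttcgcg
HSP90B1, chr12:103930160-103930459, plus strand: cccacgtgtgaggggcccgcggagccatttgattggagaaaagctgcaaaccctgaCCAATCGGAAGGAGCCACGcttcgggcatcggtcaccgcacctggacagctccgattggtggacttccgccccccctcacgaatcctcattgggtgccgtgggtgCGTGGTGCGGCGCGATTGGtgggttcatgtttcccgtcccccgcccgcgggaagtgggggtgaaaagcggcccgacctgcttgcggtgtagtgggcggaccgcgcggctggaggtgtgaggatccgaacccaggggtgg
PDIA6, chr2:10812736-10813035, minus strand: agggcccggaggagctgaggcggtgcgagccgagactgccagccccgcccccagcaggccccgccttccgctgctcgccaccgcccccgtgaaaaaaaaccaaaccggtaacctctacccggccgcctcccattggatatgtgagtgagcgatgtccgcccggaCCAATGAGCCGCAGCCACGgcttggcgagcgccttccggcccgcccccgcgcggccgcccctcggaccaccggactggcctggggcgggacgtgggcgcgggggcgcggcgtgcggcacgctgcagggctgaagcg
A match of letters is a description of the sequence only, and binding was not measured.

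Glycolytic genes and targets of the hypoxia-inducible factors moved unevenly. Of 25 tested glycolysis genes 12 fell and 3 rose (6 and 1 without the run term), with a median log2 change of -0.12. SLC16A3, the lactate exporter MCT4, had 5.54, 21.7 and 27.7 CPM with hairpin 6 and 61.6, 160 and 177 CPM in controls. Run 7 was low in both groups, and the log2 change was -2.96 ± 0.13 (adjusted p = 6.9e-09). PFKFB3, which makes the activator of phosphofructokinase, changed by -1.02 ± 0.13, and the aldolase ALDOC by -0.95 ± 0.09. GAPDH went the other way, with 3387, 3630 and 3641 CPM with hairpin 6 and 2698, 2724 and 2544 CPM in controls (log2 change 0.42 ± 0.06, adjusted p = 6.7e-05). Among 31 tested hypoxia targets 7 fell and 5 rose (4 and 4 without the run term), with a median log2 change of -0.035. Over all tested genes 13.3% fell and 14.5% rose, so the share of hypoxia targets that rose was near that of all genes. NDUFA4L2, a mitochondrial protein induced in hypoxia, fell to 0.27 to 0.35 CPM with hairpin 6, against 1.65 to 4.10 CPM in controls, and EGLN3, a prolyl hydroxylase that HIF induces, to 12.1 to 17.01 CPM, against 26 to 40.4 CPM (log2 change -1.14 ± 0.11). CA12, a carbonic anhydrase, rose by 1.00 ± 0.11 on the log2 scale.

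Genes of mitosis were lower in part, and genes of DNA replication rarely passed. Of 46 tested mitosis genes 14 fell and none rose, but without the run term only TPX2 fell. Among all tested genes 13.3% fell and 14.5% rose, and at 100 CPM or more 23% fell and 8.6% rose. Without run 7 the count was 24, and without run 9 or run 10 it was 6. The within-run medians of this list were -0.07 in run 7, -0.15 in run 9 and -0.38 in run 10. TPX2, a spindle assembly factor, had 476, 556 and 470 CPM with hairpin 6 and 679, 868 and 914 CPM in controls (log2 change -0.71 ± 0.09, adjusted p = 6.3e-05, 0.048 without the run term). The ubiquitin-conjugating enzyme UBE2C changed by -0.58 ± 0.08 and the transcription factor MYBL2 by -0.62 ± 0.10. All of these lie on chromosome 20, and 6 of the 14 genes that fell lie on chromosome 3 or 20. Of 50 tested replication genes 4 fell and none rose (3 and 0 without the run term). Both shares that fell were below those of all tested genes, 13.3% with the run term and 6.84% without. GINS1, a subunit of the replicative helicase, changed by -0.68 ± 0.13 and E2F1, a transcription factor of S phase entry, by -0.55 ± 0.13, and both also lie on chromosome 20.

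Of 25 tested targets of p53, 12 rose and none fell, with a median log2 change of 0.36, and 3 rose without the run term. Among all tested genes 14.5% rose and 13.3% fell, and 7.31% rose without the run term. The groups did not overlap for 4 of the 25, against 35.8% of all tested genes. CDKN1A, which encodes the CDK inhibitor p21, had 3.84, 40.3 and 38.3 CPM with hairpin 6 and 0.475, 7.83 and 1.72 CPM in controls. The groups overlap, since the hairpin 6 library of run 7 lies below the control of run 9, although hairpin 6 was higher within each run (log2 change 3.06 ± 0.48, adjusted p = 0.0015, 0.043 without the run term). BTG2, an antiproliferative gene, had 30.6, 59.5 and 51.7 CPM with hairpin 6 and 22.6, 27.6 and 18.6 CPM in controls (log2 change 1.02 ± 0.14). The values of these genes in run 7 were the lowest with hairpin 6. The inhibitors CDKN2A and CDKN2B, neighbours at the INK4 locus of chromosome 9, rose by 2.45 ± 0.22 and 3.83 ± 0.50 on the log2 scale. CDKN2A stood at 4.39 to 10.3 CPM with hairpin 6, against 0.857 to 1.499 CPM in controls. CDKN1B, the inhibitor p27, fell by 0.40 ± 0.07 (adjusted p = 7.1e-04, 0.057 without the run term).

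Lists of neuronal genes moved unevenly. Among 41 tested genes of the neuronal cytoskeleton and synaptic vesicles 17 rose and 5 fell, with a median log2 change of 0.56, and 6 rose and 1 fell without the run term. SYP, a synaptic vesicle membrane protein, had 98.8, 73.9 and 63.8 CPM with hairpin 6 and 58.6, 21.4 and 18.2 CPM in controls, without overlap (log2 change 1.41 ± 0.20, adjusted p = 4.1e-04). The vesicle protein SV2B rose by 0.46 ± 0.08. Of 27 tested synaptic organisers and adhesion genes 6 rose and 3 fell (5 and 2 without the run term), beside 19.6% and 9.13% of all genes at 1 to 10 CPM. Of 20 tested neurogenic transcription factors 4 rose and 4 fell (1 and 3 without the run term), beside 14.5% and 13.3% of all tested genes. C1QL1, a secreted synaptic organiser, had 3.25, 5.63 and 4.34 CPM with hairpin 6 and 58.2, 101 and 97.0 CPM in controls. All hairpin 6 libraries were more than 10 times lower than the control of their run, and the log2 change was -4.28 ± 0.16 (adjusted p = 4.8e-10). Its relative C1QL4 fell by 2.32 ± 0.15. The glutamate receptor subunit GRIA1 rose, with 4.27 to 6.61 CPM with hairpin 6 and 0.286 to 1.13 CPM in controls, whereas the subunit GRIN1, on chromosome 9, fell by 1.77 ± 0.25.

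Photoreceptor and retinal genes, a signature of Group 3 tumours, split by member. Of 39 tested genes 10 rose and 8 fell (8 and 3 without the run term). Over all tested genes 14.5% rose and 13.3% fell (7.31% and 6.84% without the run term). The share of the list that fell without the run term was thus near that of all genes. PDE6B, a subunit of the rod phosphodiesterase, had 9.73, 5.75 and 8.32 CPM with hairpin 6 and 1.90, 1.04 and 1.46 CPM in controls (log2 change 2.44 ± 0.15, adjusted p = 1.4e-07). RBP3, a retinoid-binding protein of the photoreceptor matrix, had 218, 240 and 193 CPM with hairpin 6 and 151, 85.7 and 55.4 CPM in controls (log2 change 1.23 ± 0.24, adjusted p = 0.0038). For RBP3 the controls spread more between runs than the hairpin 6 libraries. GNB3, a cone transducin subunit, fell by 0.72 ± 0.07. OTX2 had 1344, 1549 and 1565 CPM with hairpin 6 and 1526, 1580 and 1895 CPM in controls, groups that overlap, and fell by 0.17 ± 0.06 (adjusted p = 0.040, 0.41 without the run term).

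Genes of the extracellular matrix rose more often than they fell, and most did not pass. Of 30 tested collagens 13 rose and 2 fell, with a median log2 change of 0.84, and of 39 tested matrix and mesenchymal genes 16 rose and 2 fell, with a median of 0.68. Without the run term the counts were 8 and 1, and 11 and 0. All tested genes had 14.5% higher and 13.3% lower, and 7.31% and 6.84% without that term. Genes at 1 to 10 CPM had 19.6% higher and 9.13% lower with the run term. COL1A1, the main fibrillar collagen chain, had 29.4, 15.8 and 41.6 CPM with hairpin 6 and 5.38, 3.24 and 1.87 CPM in controls (log2 change 2.99 ± 0.40, adjusted p = 4.1e-04). COL6A1 rose by 2.08 ± 0.26, with 253, 95.5 and 105 CPM with hairpin 6 and 59.8, 34.5 and 15.02 CPM in controls. Run 7 was high for COL6A1 in both groups, and the groups did not overlap. MMP2, a gelatinase, had 331, 509 and 469 CPM with hairpin 6 and 202, 147 and 99.6 CPM in controls (log2 change 1.52 ± 0.33, adjusted p = 0.0088). CDH2, N-cadherin, rose by 1.77 ± 0.30. The enzyme LOXL1, which crosslinks elastin, rose by 1.13 ± 0.19.

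Markers of other cell types were read beside these genes. Over all tested genes 14.5% rose and 13.3% fell, and among genes at 1 to 10 CPM 19.6% and 9.13%. Of 8 tested fibroblast and pericyte markers 3 rose and none fell (2 and 0 without the run term). Their summed level was 48.8 to 92.5 CPM with hairpin 6 and 23.6 to 38.3 CPM in controls. All 9 markers of that list had counts. Of 7 tested epithelial and keratin genes 6 rose and 1 fell, with sums of 282 to 451 CPM with hairpin 6 and 104 to 233 CPM in controls, KRT15 had no counts, and KRT5, KRT14, KRT19, KRT222 and EPCAM each had 18 or fewer over the 6 libraries. Endothelial markers summed to 3.46 to 5.07 CPM with hairpin 6 and 1.52 to 2.91 CPM in controls, with TEK at 0 counts and PECAM1, CDH5, VWF and EMCN each at 18 or fewer. Microglia and immune markers summed to 4.47 to 5.98 CPM with hairpin 6 and 3.77 to 5.48 CPM in controls, groups that overlap, and P2RY12 had no counts. The astrocyte sum was 366 to 484 CPM with hairpin 6 and 264 to 379 CPM in controls, mostly GLUL, and ALDH1L1 had no counts. The part of other cell types in the change of matrix genes was not tested, and in bulk RNA fewer cells of a type and less RNA per cell cannot be told apart.

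Developmental transcription factors, receptors and ligands moved in both directions. Among all tested genes 14.5% rose and 13.3% fell, and 7.31% and 6.84% without the run term. Of 10 tested SOX genes 6 rose and 2 fell, with the same counts without the run term. SOX6 had 16.4, 14.9 and 12.4 CPM with hairpin 6 and 6.69, 3.77 and 2.06 CPM in controls (log2 change 1.87 ± 0.22), and SOX4 had 102 to 103 CPM with hairpin 6 and 57.5 to 73.0 CPM in controls (log2 change 0.69 ± 0.10). GLI3, a transcription factor at the end of the Hedgehog pathway, had 9.26, 7.69 and 8.85 CPM with hairpin 6 and 0.183, 0.485 and 0.540 CPM in controls. All hairpin 6 libraries were more than 10 times higher, and the log2 change was 4.40 ± 0.32 (adjusted p = 6.9e-07). Of the other 16 tested Hedgehog genes 1 rose, DISP1, and 3 fell. GLI2 and the receptor PTCH1 fell by 0.35 ± 0.10 and 0.33 ± 0.10 and HHAT by 0.41, and none of the 3 passed without the run term. PTCH1 lies on chromosome 9, where the median of its neighbours was -0.40. With 2 higher and 3 lower of 17 tested, the Hedgehog list was near the shares of all tested genes. Among 42 tested growth factor receptors and ligands 18 rose and 8 fell (11 and 1 without the run term). FGFR2 rose by 1.14 ± 0.15 and the WNT receptor ROR2, on chromosome 9, fell by 0.77 ± 0.09. BMP7, a secreted ligand, had 65.4, 69.4 and 86.1 CPM with hairpin 6 and 25.8, 16.4 and 17.2 CPM in controls (log2 change 1.90 ± 0.15, adjusted p = 3.1e-06), and it rose although it lies on chromosome 20.

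Immediate early, immune and lysosomal genes rose in part. The shares over all tested genes were 14.5% higher and 13.3% lower, and 7.31% and 6.84% without the run term. At 1 to 10 CPM they were 19.6% and 9.13% with the run term. Of 33 tested AP-1 and immediate early genes 16 rose and 1 fell (6 and 0 without the run term). JUN had 41.2, 39.4 and 55.8 CPM with hairpin 6 and 25.5, 11.4 and 12.5 CPM in controls (log2 change 1.53 ± 0.21), and the MAP kinase phosphatase DUSP5 rose by 1.13 ± 0.13. Of 11 tested genes of MHC class I presentation 7 rose and 1 fell (2 and 0 without the run term). TAP1, a subunit of the peptide transporter, had 1.19, 0.777 and 1.10 CPM with hairpin 6 and 0.512, 0.186 and 0.286 CPM in controls, low levels without overlap (log2 change 1.66 ± 0.35, adjusted p = 0.0022, 0.053 without the run term). Interferon response genes and NF-kB targets had 6 of 20 higher each and none lower, but without the run term 0 and 1 rose. Lysosomal genes had 12 of 35 higher and 2 lower (5 and 0 without the run term). SCARB2, a lysosomal membrane protein, had 223, 213 and 212 CPM with hairpin 6 and 121, 103 and 75.3 CPM in controls, and the protease CTSD rose by 0.73 ± 0.10.

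**Figure D2:**
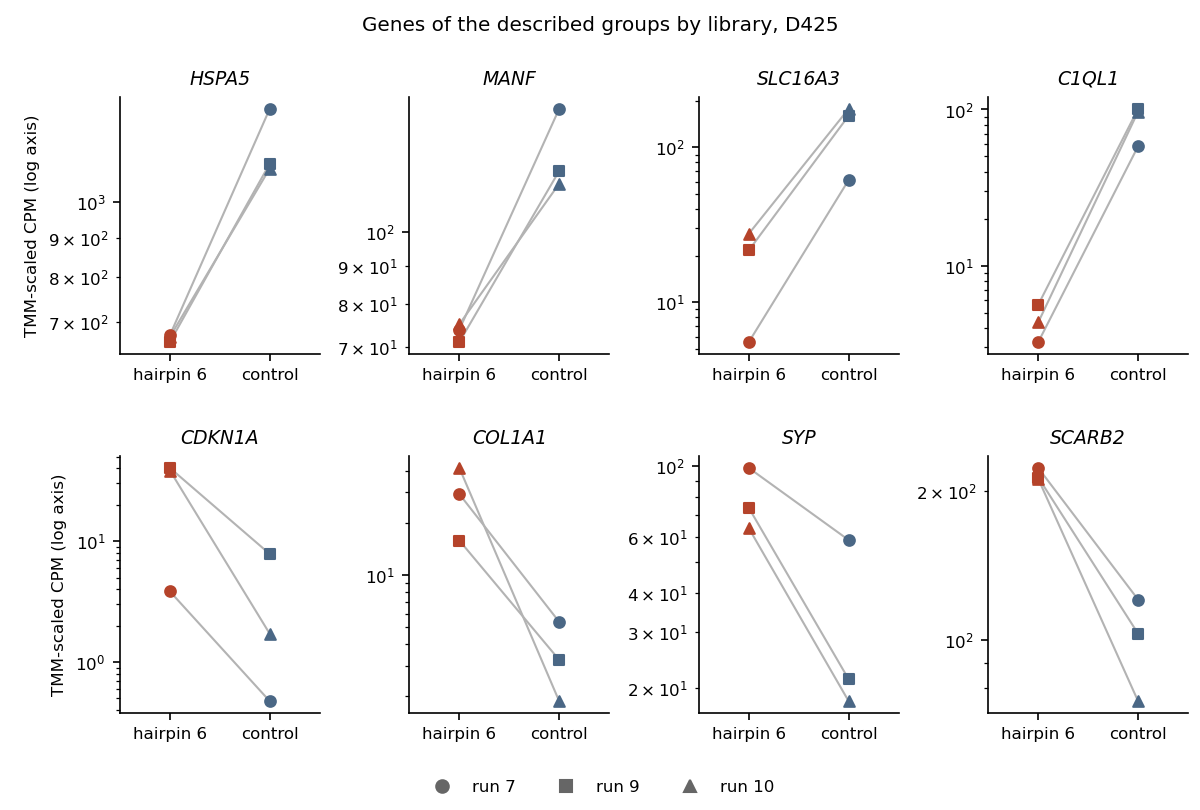
TMM-scaled CPM (y axes, log scale) of 8 genes in the hairpin 6 libraries (left) and the control libraries (right); symbols mark runs and lines join libraries of a run. HSPA5, MANF, SLC16A3 and C1QL1 are lower with hairpin 6 in every run, and CDKN1A, COL1A1, SYP and SCARB2 are higher in every run, with an overlap between the groups for CDKN1A.

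Housekeeping groups moved little. Of 53 tested cytosolic ribosomal protein genes 10 fell and 3 rose (5 and 0 without the run term), with a median log2 change of -0.04. RPL7A changed by -0.55 ± 0.06, RPL35 by -0.50 ± 0.06 and RPL12 by -0.45 ± 0.07, all on chromosome 9. Of 44 members off chromosomes 3, 9 and 20, 4 fell and 3 rose. Of 51 tested nuclear subunits of oxidative phosphorylation 7 rose and 4 fell (3 and 3 without the run term). Of 31 proteasome genes 2 rose and 4 fell (2 and 3 without the run term). With the run term the shares of oxidative phosphorylation and proteasome genes were below or near those of all tested genes, 14.5% higher and 13.3% lower. Cytosolic ribosomal protein genes fell in a larger share than all tested genes and rose in a smaller one. The 13 tested genes of the RNA interference machinery had a median log2 change of -0.03, and XPO5, the hairpin exporter, was at 265 to 313 CPM with hairpin 6 and 290 to 303 CPM in controls.

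**Figure D3:**
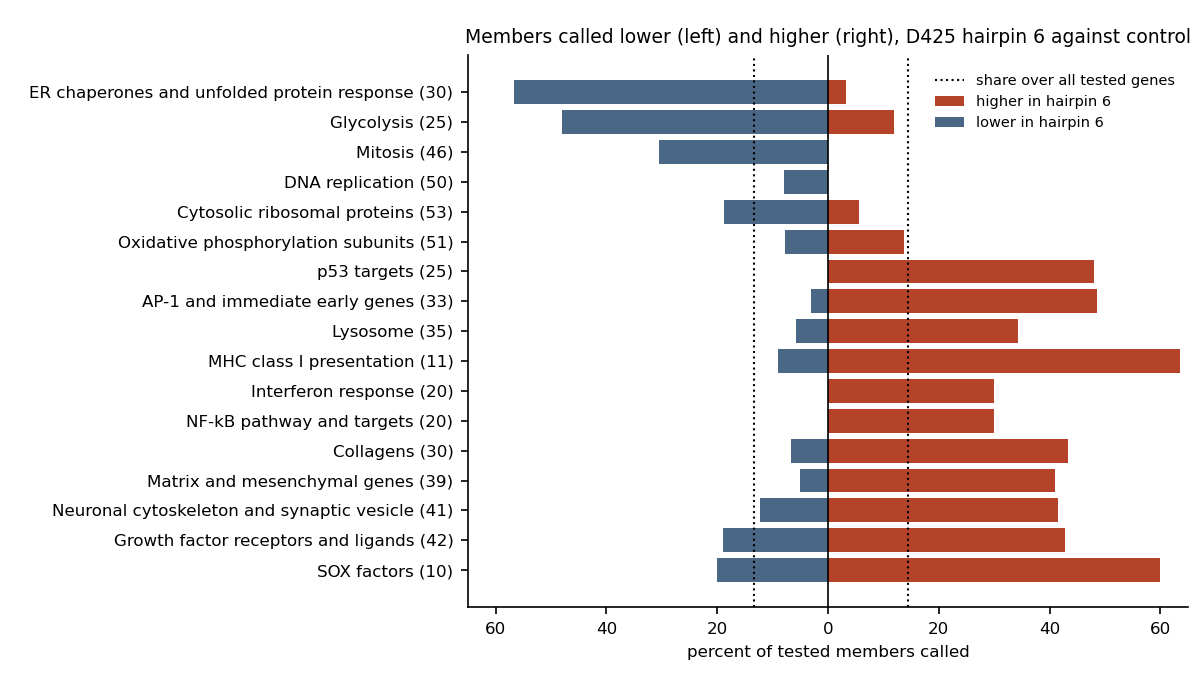
Percent of the tested members of 17 gene groups (number tested in brackets) that fell, to the left of 0, or rose, to the right of 0, with hairpin 6; dotted lines give the shares over all 14850 tested genes, 13.3% lower and 14.5% higher. ER chaperones lie furthest to the left (17 of 30) and MHC class I genes furthest to the right (7 of 11).

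Single genes with the highest folds among those averaging at least 1 CPM were mostly at low levels in one group. STK32B, a serine/threonine kinase, had 6.37, 4.19 and 4.11 CPM with hairpin 6 and 0.293, 0.0373 and 0.0635 CPM in controls (log2 change 5.21 ± 0.40, adjusted p = 1.1e-06). KRT17, an epithelial keratin, had 4.39, 4 and 8.35 CPM with hairpin 6 and 0.127 to 0.293 CPM in controls. TRIML2, SLCO4A1, OR51B5, AKR1C3 and AKR1C1 also rose, by 3.26 to 4.20 on the log2 scale, and AKR1C1 and AKR1C3 belong to a family of similar genes whose reads may not be fully separated. In the other direction KLKB1, the gene of plasma prekallikrein, had 2 counts in the hairpin 6 libraries together and 338 in the controls, a ratio of 0.00626 with an exact 95% counting interval of 0.000755 to 0.0228. KISS1R, the kisspeptin receptor, had 0.434 to 0.816 CPM with hairpin 6 and 2.49 to 10.4 CPM in controls. FAM111B, a protease, had 0.910, 1.48 and 1.60 CPM with hairpin 6 and 9.91, 9.32 and 9.94 CPM in controls (log2 change -2.90 ± 0.25). PNCK, C3orf70, TNFRSF8 and ZNF98 fell by 2.86 to 3.14, and ZNF98 belongs to a family of similar zinc finger genes.

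Among genes averaging at least 100 CPM the changes were smaller and rested on many more counts. HMGA2, a chromatin architectural protein of embryonic cells, had 174, 195 and 176 CPM with hairpin 6 and 84.6, 61.5 and 61.2 CPM in controls (log2 change 1.40 ± 0.12, adjusted p = 2.6e-06). ANKRD33B had 148, 206 and 163 CPM with hairpin 6 and 77.2, 54.9 and 27.1 CPM in controls (log2 change 1.76 ± 0.25). SEMA3F, a repulsive guidance ligand, KIF21B, a kinesin, and ADCYAP1R1, the PACAP receptor, rose by 1.31, 1.11 and 1.08 on the log2 scale. IDH1, the cytosolic isocitrate dehydrogenase, had 126, 130 and 152 CPM with hairpin 6 and 232, 243 and 277 CPM in controls, with no overlap (log2 change -0.88 ± 0.05, adjusted p = 1.3e-07). RFK, which makes FMN from riboflavin, had 97.2, 110 and 99.9 CPM with hairpin 6 and 205, 233 and 249 CPM in controls (log2 change -1.16 ± 0.10). The protease CTSV changed by -1.13 ± 0.10 and the splicing regulator PTBP3 by -0.89 ± 0.08, and RFK, CTSV and PTBP3 all lie on chromosome 9. The neuropeptide gene NPW and the transcription factor SALL1 fell by 1.03 ± 0.10 and 0.84 ± 0.13. MYRF, a membrane-bound transcription factor, fell by 1.07 ± 0.17 (adjusted p = 6.6e-04, 0.068 without the run term).

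Changes were not spread evenly over the genome. For 9621 genes averaging 8 CPM or more that RefSeq places on a chromosome, 1667 fell (17.3%) and 1218 rose (12.7%). On chromosome 20, which carries EYA2, 177 of 272 genes fell (65.1%) and 7 rose, with a median log2 change of -0.30. On chromosome 9, 243 of 389 fell (62.5%) and 24 rose, with a median of -0.38, and on chromosome 3, 213 of 565 fell (37.7%) and 33 rose, with a median of -0.18. The median on chromosome 17 was -0.10, and those of the other chromosomes lay between -0.06 and 0.07. On chromosome 20 the medians were -0.30, -0.27 and -0.31 in runs 7, 9 and 10, and on chromosome 9 they were -0.27, -0.39 and -0.46. Chromosomes 3, 9 and 20 together held 633 of the 1667 genes that fell. Without the run term 195 genes fell on chromosome 9, 117 on chromosome 20 and 102 on chromosome 3.

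**Figure D4:**
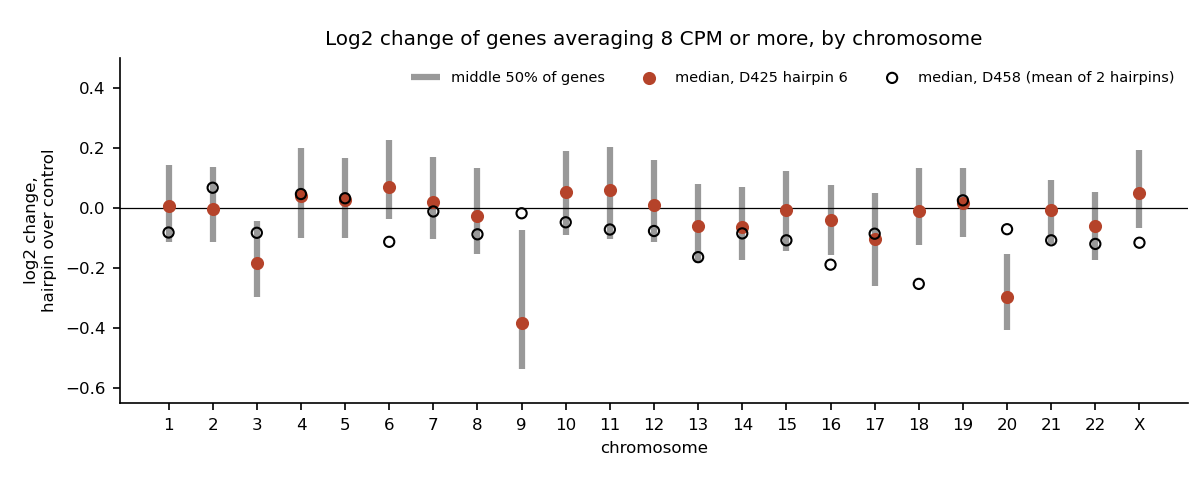
Log2 change of hairpin 6 over control (y axis) for genes averaging 8 CPM or more on each chromosome (x axis): filled points are D425 hairpin 6 medians, grey bars the middle 50% of genes, and open points medians of the mean D458 hairpin change. Chromosomes 9, 20 and 3 have the lowest D425 medians, -0.38, -0.30 and -0.18, and D458 medians of -0.02, -0.07 and -0.08.

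In gene order some of the shifts had borders. Borders are given on a grid of 25 genes and are no exact positions. On chromosome 9 the first 100 genes, WASH1 to KLF9, had a median of 0.03, with 18 that rose and 8 that fell. The following 289 genes, TRPM3 to EHMT1, had a median of -0.46, with 6 that rose and 235 that fell (81.3%). Without the run term 2 genes fell in the first stretch and 193 in the second. The middle 50% of the second stretch ran from -0.57 to -0.33, and its median corresponds to 0.725 of the control level. Lower genes began before that border, with SMC5 at -0.69 (adjusted p = 4.6e-05), PTAR1 at -0.46 (adjusted p = 0.0016) and FAM122A at -0.30 (adjusted p = 0.038), while KLF9 between them and TRPM3 was at -0.03. CDKN2A and CDKN2B, which rose, lie in the first stretch, and HSPA5, RFK, CTSV and PTBP3 in the second. On chromosome 20 the medians of 25 neighbouring genes stayed between -0.39 and -0.22 from end to end. EYA2 changed by -1.17 where the median of its neighbours was -0.34. On chromosome 3 the last 265 genes, from TBC1D23, had a median of -0.23 and the 300 before them -0.13. On chromosome 17 the last 193, from TUBD1, had -0.23 and the 450 before them -0.06. Neither was a clean step. On chromosome 3 the group of 25 from ZNF589, before the border, had -0.23, and that from GK5, after it, -0.14. On chromosome 17 the groups from KPNB1 to VMP1, before the border, had -0.16, -0.16 and -0.14, and that from ARSG, after it, -0.06. On chromosome 11 the genes up to CCDC90B had a median of 0.12 and the last 147 had -0.15. These borders were chosen after the values were seen, and DNA copy number was not measured in these files, so its part in the shifts was not tested.

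**Figure D5:**
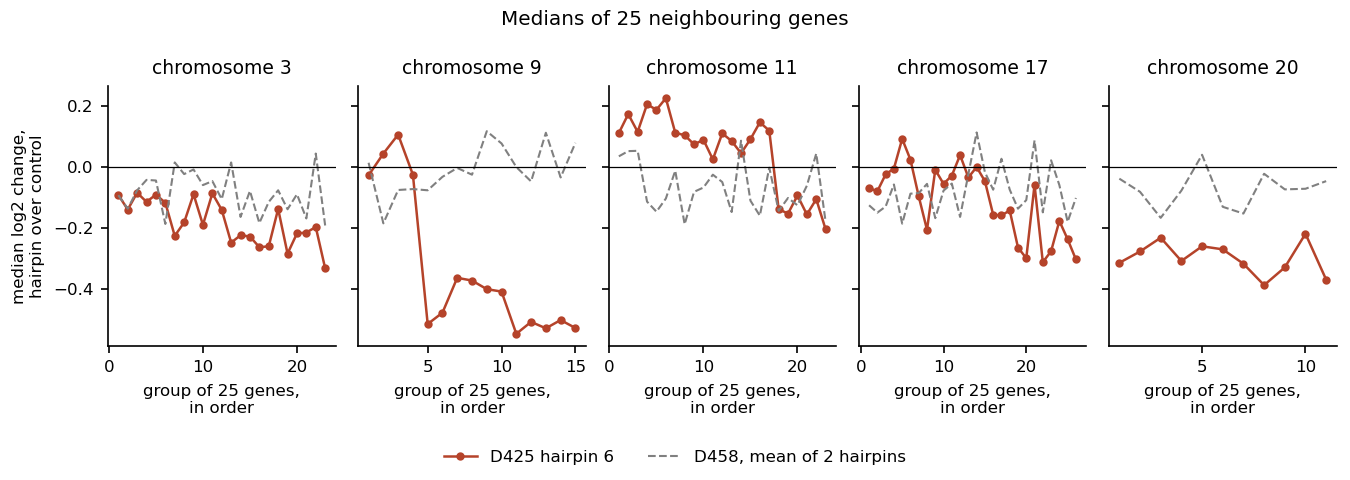
Median log2 change of hairpin 6 over control (y axis) in groups of 25 neighbouring genes averaging 8 CPM or more, in order along chromosomes 3, 9, 11, 17 and 20 (x axis); the dashed line is the mean of the D458 hairpins. On chromosome 9 the D425 medians are between -0.03 and 0.11 in the first 4 groups and between -0.55 and -0.36 in the remaining 11.

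When, as a step added after the values were seen, each change was set against the median of the 25 neighbouring genes on either side, 3319 genes passed, 2046 higher and 1273 lower. Of the genes named above, IDH1, SIX2, C1QL1, SLC16A3 and GLI3 lie where that median was between -0.25 and 0.12. HSPA5, with a local median of -0.49, kept a difference of -0.33 from it, and RPL7A, with a local median of -0.48, one of -0.08. TPX2, with a local median of -0.27, kept a difference of -0.44. Of the ribosomal proteins 3 of 53 passed after this step, of the mitosis genes 11 of 46 and of the ER chaperones 15 of 30.

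Hairpin 8 in D425 was compared with the same 3 control libraries, so its change and that of hairpin 6 are not independent. Between the hairpins themselves edgeR called no gene (0.0% of 14850), with 1495 genes at an unadjusted p under 0.05, and limma voom also called none, whereas DESeq2 called 88. Among genes of 8 CPM or more, 99.6% differed by no more than 0.5 on the log2 scale between the hairpins, and the widest difference was 1.17. EYA2 averaged 11.9 ± 2.87 CPM with hairpin 6 (SD, n = 3) and 14.1 CPM with hairpin 8, a log2 difference of -0.26 ± 0.16 (adjusted p = 0.60). GLI3 averaged 8.60 CPM with hairpin 6 and 8.99 CPM with hairpin 8, and C1QL1 4.41 and 3.35 CPM. The second stretch of chromosome 9 had a median of -0.46 with hairpin 6 and -0.50 with hairpin 8, and chromosome 20 had -0.30 and -0.32. Since every such value is relative to the same controls, a property of the hairpin cells and one of the control cells cannot be told apart here.

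D458, the other line, had its own controls. The hairpin 6 change in D425 differed from the mean hairpin change in D458 for 4414 genes (29.7%), 2150 of them lower in D425 (14.5%), and without the run term for 2072. EYA2 changed by -1.17 in D425 and by -1.18 on average in D458 on the log2 scale, a difference of 0.01 ± 0.20 (adjusted p = 0.98). The D458 hairpins differed in their EYA2 level, which averaged 48.1 CPM with hairpin 7, 20.3 CPM with hairpin 8 and 70.3 CPM in controls, so their mean stands for neither. The HIF target EGLN3 changed by -1.14 in D425 and -1.16 in D458, a difference of 0.03 ± 0.15. SIX2 fell by 0.72 in D425 and changed by 0.04 in D458 (difference -0.76 ± 0.09, adjusted p = 3.4e-05), and IDH1 by -0.88 and 0.36 (difference -1.25 ± 0.07, adjusted p = 3.7e-08). In the second stretch of chromosome 9 the D458 median was 0.00, and 189 of its 289 genes (65.4%) were lower in D425 by the test of the difference, against 8 of 100 in the first stretch. On chromosome 20 it was 97 of 272 (35.7%).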

How the data were processed

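Whole-number read counts per gene symbol were used as the authors deposited them, without normalization, for 25369 symbols in 18 libraries. Per the labels' protocols the RNA was poly(A)-selected and the kit kept strand. The submitters' processing notes name TopHat2, Bowtie2 and HTSeq among other tools, with GRCh37 and hg19 as builds. No source used here says how strand or reads with several matches were handled, so overlapping genes and near-identical copies are uncertain.

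Genes were kept with filterByExpr (minimum count 10), which left 14850 and removed 10519. One edgeR 4.0.16 quasi-likelihood model (R 4.3.3, TMM scaling, robust estimation) covered all 18 libraries, with a coefficient per group and a term for the run within each line, and had 8 residual degrees of freedom. Its common biological coefficient of variation was 0.089. Within-run changes used log2 CPM with a prior count of 2. Alternatives used limma 3.58.1 and DESeq2 1.42.0. On simulated data for the hairpin 6 comparison, run on 14850 genes, 37 of 50 genes with a 1.5-fold change, 45 of 50 with a 2-fold change and all 50 with a 4-fold change were recovered, and 11 unchanged genes were called. The simulated counts were drawn from the fitted model with its run term, and only 50 genes were changed at each size. They cannot show whether the run term is right, and they hold no shifts of whole chromosomes.

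The run term follows the run label that same-numbered libraries share. Deviations from group means correlated at 0.37, 0.15 and 0.08 between hairpin 6 and control libraries of runs 7, 9 and 10. The crossed pairs of runs 9 and 10, which carry the same date in the labels, correlated slightly more, at 0.20 and 0.19. These rows therefore do not show that runs 9 and 10 pair by number. Counts and calls without the term stand beside many of the main ones, but not beside all that differ. The labels call the replicates biological and independent.

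RefSeq gave chromosomes and gene order for 97.9% of tested genes. The comparison, its 60 gene lists and the genes named were chosen with earlier results of these data known. Named by rule were the EYA2 network, 10 genes in each direction with the largest change at 1 CPM or more and 8 at 100 CPM or more (same direction in 3 runs, no overlap between groups), 5 in each direction that differ most from D458, and up to 4 called members per list. A few of them are not reported here. HHAT, HSP90B1, PDIA6 and the genes at borders on chromosomes (SMC5, PTAR1, FAM122A and KLF9 among them) were named after their values were seen.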

Additional observations from a re-analysis of the deposited data

Results flagged for a closer look

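The change with hairpin 6 in D425 differed from the mean change of both hairpins in D458 for 4414 of 14850 genes by the edgeR test of that difference, and the 5 genes furthest apart in each direction are given here. BRDT, a testis bromodomain gene, averaged 3.00 CPM with hairpin 6 and 1.39 CPM in control in D425. In D458 it averaged 0.0585 and 0.0860 CPM with the hairpins and 2.21 CPM in control, a difference in change of 5.97 on the log2 scale. Within D425 the edgeR test of hairpin 6 against control did not call BRDT (adjusted p = 0.077). GLI3 and TRIML2 averaged 8.60 and 4.35 CPM with hairpin 6 in D425, and no D458 group mean of either exceeded 0.154 CPM, with differences of 5.72 and 5.44. OR51B5 averaged 10.3 CPM with hairpin 6 and 0.814 CPM in control in D425, and 16.2, 19.6 and 41.7 CPM with hairpin 7, hairpin 8 and in control in D458, a difference of 4.89. BPIFB4 averaged 13.5 CPM with hairpin 6 and 2.44 CPM in control in D425, and 0.0679 to 0.588 CPM in D458, a difference of 4.39.

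In the other direction ZNF732 averaged 0.575 CPM with hairpin 6 and 3.78 CPM in control in D425, and 0.137, 0.113 and 0 CPM with hairpin 7, hairpin 8 and in control in D458, a difference of -7.38. ZNF141 averaged 0.909 CPM with hairpin 6 and 3.55 CPM in control in D425, and 0.935, 1.05 and 0.0598 CPM with hairpin 7, hairpin 8 and in control in D458, a difference of -5.92. CRISPLD1 averaged 3.81 CPM with hairpin 6 and 7.28 CPM in control in D425, and 2.35, 2.78 and 0.0731 CPM in the same 3 groups of D458, a difference of -5.88. OTOGL and CLDN3 had differences of -5.73 and -5.47. ZNF732, OTOGL and CLDN3 had no counts in the D458 controls, so all 3 of these fitted sizes depend on the prior count and are neither exact folds nor bounds. OTOGL lost its call without the run term (adjusted p = 0.095). The D458 controls of ZNF141 and CRISPLD1 were also near 0 CPM, so the sizes for these genes rest on few D458 counts. The same holds for GLI3 and TRIML2, whose D458 changes of -1.32 and -1.25 enter their differences.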

How the results depend on the processing

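The main count of 4134 genes fell to 2101 without the replicate block, to 2070 with 6 libraries alone and no block, and ran from 1704 to 4289 when a run or a single library was left out. The difference from D458, 4414 genes, was 2072 without the block and 2099 to 4494 with a run or library left out. Between hairpins 6 and 8 no gene passed in the main fit, none without the block, 20 with no filter on low counts, 88 with DESeq2 and 0 to 24 with a run or library left out. Of 244 named genes that passed, 186 kept their call without the block and 129 under every setting tried other than the 2 chosen after seeing the data. EYA3 changed sign, to 0.004 with library totals only, 0.002 with upper quartile factors, 0.016 against its neighbours, and ran from -0.137 to 0.034 with a library or run left out. XPO5 changed sign, to 0.003 with library totals only, 0.001 with upper quartile factors and ran from -0.110 to 0.026 with a library or run left out. Neither had passed. Set against the median of neighbouring genes, an alternative chosen after seeing the data, IARS (0.083), NDUFA8 (0.021), PSMB7 (0.079), PTCH1 (0.065), RPL12 (0.056) and SRSF6 (0.044) changed sign and no longer passed, and without chromosomes 3, 9 and 20, also chosen after seeing the data, 3185 genes passed. The cause of these differences was not tested. With 3 libraries a group, folds of genes near 0 CPM rest on few counts.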
